A study of Caenorhabditis elegans with 6 samples.

Results

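The genes described here are 10 components of the integrin attachments and of the dystrophin complex of body wall muscle: *pat-2*, *pat-3*, *pat-4*, *pat-6*, *unc-112*, *unc-97*, *unc-95*, *deb-1*, *dys-1* and *dyb-1*. They were chosen by symbol, matched to the gene identifiers in the count tables, and all 10 were found among the 46726 genes counted and among the 12335 genes tested. RNA was sequenced from whole *C. elegans* animals of the wild-type strain N2 (Bristol) and of *mbl-1(tm1563)* mutants, with 3 biological replicates of each strain. All animals were day 2 adults grown at 20 degrees Celsius on HT115 bacteria with the empty RNAi vector and moved at the L4 stage to 10 µM 5-fluorouracil, so both strains share the vector bacteria and the drug. *mbl-1* is the only muscleblind gene of the worm, and its mammalian relatives are splicing factors that are sequestered by repeat RNA in myotonic dystrophy. The *tm1563* allele, a putative null, was outcrossed with N2. Values are counts per gene, so a change of isoform without a change of amount would not appear, and the RNA is from the whole body, so fewer cells of a type and less RNA per cell cannot be told apart.

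Body wall muscle of the worm pulls on the cuticle through attachments that anchor each sarcomere to the basement membrane. An integrin made of an alpha chain (PAT-2) and a beta chain (PAT-3) spans the muscle membrane, and its inner face gathers kindlin (UNC-112), integrin-linked kinase (PAT-4), parvin (PAT-6) and PINCH (UNC-97). Vinculin (DEB-1) joins this assembly at the dense bodies, where thin filaments end, and the LIM domain protein UNC-95 is found in dense bodies and M-lines. The dystrophin complex is a separate link between the cytoskeleton and the membrane, in which dystrophin (DYS-1) binds dystrobrevin (DYB-1). Embryos that lack a component named *pat* arrest paralysed before they have fully elongated, whereas loss of *dys-1* leaves viable animals with hyperactive movement.

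Library totals lay between 17574738 and 20750318 counts on genes. The mutated gene *mbl-1* (WBGene00019347) averaged 12.7 CPM (a gene's counts after scaling each library by its TMM-adjusted total) with an SD of 0.720 in N2 and 5.75 CPM with an SD of 2.11 in the mutants, n = 3 each, and the strains did not overlap. These counts cover the whole gene and not only the exon that the allele deletes. On average, long genes were lower in the mutants. When the tested genes with a known exon length were put into 5 classes of near equal size by that length, the class of longest genes (2422 bases or more) had a median log2 fold change of -0.17 between strains and the class of shortest genes had one of 0.04. This gradient differed between the mutant libraries: the median of the class of longest genes against the N2 mean was -0.40 (log2) in mutant replicate 1, 0.03 in replicate 2 and -0.15 in replicate 3. Since the 10 genes have exons of 1148 to 11508 bases, each strain difference is given below both as fitted and with the trend against exon length removed.

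The 10 genes were expressed over a 12.5-fold range of level per length in N2. *pat-3* (WBGene00003930, WBcel235 chromosome III from 3908931 to 3914149), the beta integrin, stood highest with 53.4 ± 4.59 RPKM (CPM per kilobase of merged exons, SD, n = 3). It lay at the 76.9th percentile of the tested genes and above every other gene of the set in every library. *pat-6* (15.988 RPKM as mean, SD 1.19), *unc-112* (15.8 ± 0.0787) and *unc-97* (14.8 ± 0.213) formed a second tier close to the middle of all tested genes, at percentiles 53.0, 52.8 and 51.8. The N2 range of *pat-6* overlapped with those of *unc-112* and *unc-97*, so its place among them is not resolved. *pat-4* was lower, with 8.61 ± 0.989 RPKM, and its N2 range met neither that of *unc-97* above it nor that of *deb-1* below it. *deb-1* (6.32 ± 0.399 RPKM) overlapped with *unc-95* (5.56 ± 0.802), and *dyb-1* (4.35 ± 0.0116), *dys-1* (4.34 ± 0.219) and *pat-2* (4.27 ± 0.395) could not be ordered at the bottom. In the mutants the first 5 places held the same genes, and *deb-1* moved from place 6 to place 8. The SD over 3 libraries is itself imprecise: that of *dyb-1* in N2 came to 0.266% of its mean, far under the counting error of 8.16% at its lowest count of 150.

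**Figure D1:**
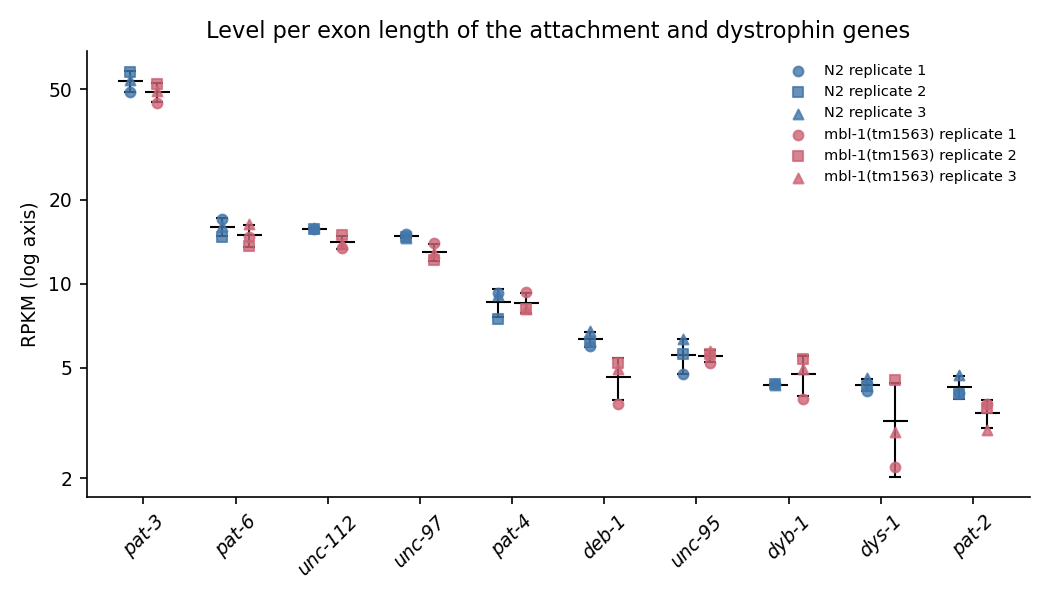
Level per exon length (RPKM, log axis) of the 10 genes in each of the 6 libraries, in order of their N2 mean; points are libraries, horizontal bars are strain means and error bars are SD (n = 3 per strain). *pat-3* stands alone near 50 RPKM in both strains, and the mutant libraries of *dys-1* are spread more widely than those of any other gene shown.

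None of the 10 genes passed the test between strains. With edgeR's quasi-likelihood test, 0 of 10 reached an adjusted p (Benjamini-Hochberg over all tested genes) under 0.05 together with a 2-fold change, against 1.82% of all tested genes (1.14% lower and 0.681% higher). The adjusted p alone was reached by 0 of 10, against 5.35% of all tested genes (3.58% lower and 1.77% higher). All p-values per gene below come from this test. At an unadjusted p under 0.05 there were 2, *deb-1* and *pat-2* (23.7% of all tested genes), and DESeq2 also gave 0 at an adjusted p under 0.05. The fitted log2 fold change was below 0 in 9 of the 10, as in 55.2% of all tested genes, and its median was -0.15, against -0.04 over all tested genes. In 4 genes, *pat-2*, *unc-112*, *unc-97* and *deb-1*, the highest mutant library was lower than the lowest N2 library, which held for 17.9% of all tested genes. The opposite held for 0 of the 10 and for 14.7% of all tested genes. This was read on CPM not corrected for length. In mutant replicate 1 these 4 lay at -0.20, -0.23, -0.08 and -0.77 (log2 against the N2 mean), in that order. The trend of all tested genes at their exon lengths, relative to its N2 mean, lay at -0.47, -0.23, -0.04 and -0.46 in that library. With the length trend removed, 0 of 10 passed the adjusted p limit, against 8.63% of all tested genes (4.56% lower), and 1, *deb-1*, had an unadjusted p under 0.05. In that fit 7 of the 10 were below 0, against 48.2% of all tested genes, and the median was -0.04, against 0.01 over all tested genes. Where the 95% interval of a log2 fold change is given, it measures how large a difference these 6 libraries leave possible, and none of the 10 intervals reached a 2-fold change in either direction.

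**Figure D2:**
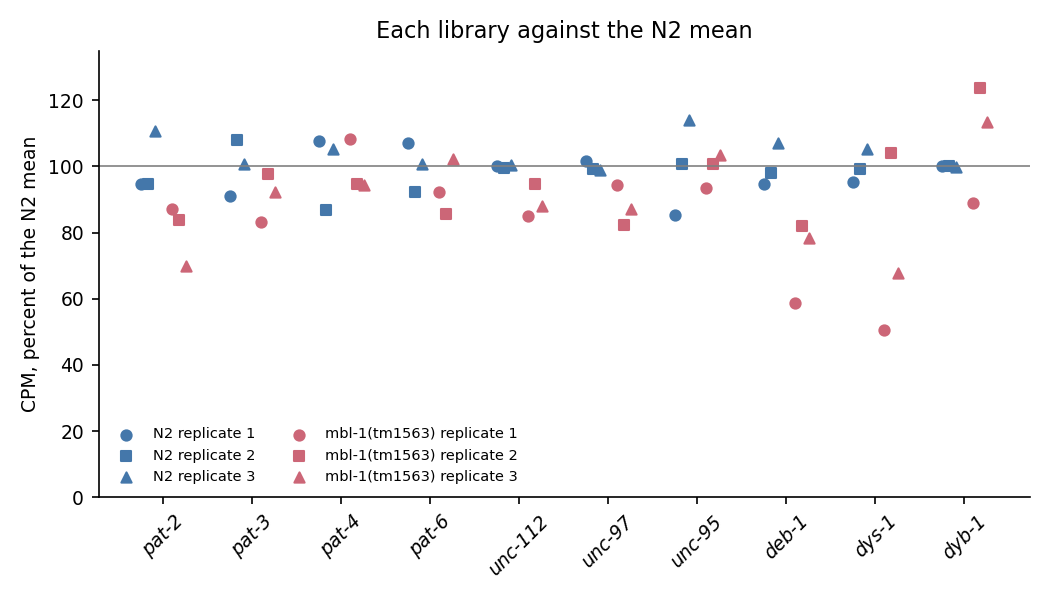
CPM of each gene in each library as a percent of the gene's N2 mean (grey line at 100). *deb-1* and *dys-1* show the lowest mutant points, at 58.7% and 50.5% in mutant replicate 1, while *pat-4* and *unc-95* overlap between strains.

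Neither integrin chain passed the test. *pat-2* (WBGene00003929, chromosome III from 8818899 to 8825266), the alpha chain that pairs with PAT-3 in muscle, had 16.05, 16.02 and 18.8 CPM in the N2 libraries, in replicate order, against 14.8, 14.2 and 11.8 in those of the mutants. The strains did not overlap, and the lowest was mutant replicate 3, not replicate 1. The log2 fold change was -0.32 (0.12 SE, 95% interval -0.60 to -0.03, edgeR adjusted p = 0.179), and -0.08 with the length trend removed. *pat-2* shares 41 bases of exon with *F54F2.9* on the opposite strand, where reads counted without strand cannot be told apart. *pat-3*, the beta chain of all worm integrins, had 138, 164 and 153 CPM in N2 and 127, 149 and 141 in the mutants. The strains overlapped, and 1 mutant library lay below the lowest N2 library. Its log2 fold change was -0.13 (95% interval -0.35 to 0.08) and -0.0011 once the trend was removed.

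The proteins bound to the integrin tail showed small differences. *unc-112* (WBGene00006836, chromosome V from 14691855 to 14696654), kindlin, had 39.2, 39.0 and 39.4 CPM in N2 and 33.3, 37.1 and 34.6 in the mutants. The N2 libraries were nearly equal and all mutant libraries lay below them, at 85.0%, 94.6% and 88.1% of the N2 mean. The N2 libraries were closer than counting error would lead to, with an SD of 0.499% of their mean against 3.97% at the gene's lowest count of 633. The log2 fold change was -0.16 (0.07 SE, edgeR adjusted p = 0.232), or -0.06 with the trend removed, and 122 bases of its exons (4.91%) overlap *gasr-8* on the other strand. *unc-97* (WBGene00006826, chromosome X from 5593133 to 5594965), PINCH, an adaptor made of LIM domains, had 22.96, 22.4 and 22.4 CPM in N2 and 21.3, 18.6 and 19.7 in the mutants. Again the strains were apart, but here the lowest library was mutant replicate 2. The N2 SD of *unc-97* was 1.44% of the mean, also under the counting error of 5.53% at its lowest count of 327. Its log2 fold change of -0.18 (95% interval -0.39 to 0.02) changed little with the trend removed (-0.16), its exons being 1527 bases long.

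*pat-4* (WBGene00003931, chromosome III from 89453 to 94809), integrin-linked kinase, had 14.8, 11.9 and 14.5 CPM in N2 and 14.9, 13.01 and 12.99 in the mutants. The strains overlapped, and the log2 fold change of -0.01 had a 95% interval of -0.30 to 0.28 (0.02 with the length trend removed). *pat-6* (WBGene00003932, chromosome IV from 261886 to 264232), parvin, the actin-binding partner of PAT-4, had 21.5, 18.6 and 20.3 CPM in N2 and 18.6, 17.2 and 20.6 in the mutants. Its highest mutant library stood above the N2 mean and its log2 fold change was -0.10 (95% interval -0.35 to 0.15) in both fits. *unc-95* (WBGene00006824, chromosome I from 14381360 to 14384737) had the fewest counts of the set, 103 to 129 per library. It gave 5.44, 6.42 and 7.28 CPM in N2 and 5.95, 6.42 and 6.60 in the mutants. All mutant libraries lay within the N2 range, and the log2 fold change was -0.01 (95% interval -0.34 to 0.32), also with the trend removed. The signs for *pat-4* and *unc-95* turned positive when the libraries were scaled by total counts alone (0.07 for each) or by the RLE method (0.02 for each).

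*deb-1* (WBGene00000942, chromosome IV from 7085215 to 7094266), vinculin, showed the lowest fitted value of the set. It had 23.3, 24.1 and 26.3 CPM in N2 and 14.4, 20.2 and 19.3 in the mutants, so the strains did not overlap and mutant replicate 1 stood apart as the lowest. The mutant mean was 73.0% of the N2 mean. The log2 fold change was -0.45 (0.14 SE, 95% interval -0.77 to -0.14), with an edgeR adjusted p of 0.102 (0.0358 to 0.304 over the alternatives). It was -0.25 (0.09 SE, adjusted p = 0.112) with the length trend removed. The adjusted p was 0.0497 without mutant replicate 1 and 0.0415 without mutant replicate 2, with log2 fold changes of -0.32 and -0.50, and 0.0358 with edgeR's likelihood ratio test. Many more genes passed in these fits: 1517 of 12564, 1986 of 12613 and 1411 of 12335 tested genes, in that order, against 660 as fitted. A 9-base overlap with a piRNA locus on the opposite strand touches 0.231% of its exons.

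*dys-1* (WBGene00001131, chromosome I from 11526918 to 11557851), the worm dystrophin, has 48 merged exons and is the longest gene of the set. It had 47.6, 49.5 and 52.6 CPM in N2. In the mutants it had 25.2, 51.98 and 33.8, which is 50.5%, 104% and 67.7% of the N2 mean. Mutant replicate 2 was within the N2 range and the others were below it, replicate 1 lowest, and the SD of the mutants was 37.0% of their mean, against 5.05% in N2. The log2 fold change was -0.43 (0.23 SE, 95% interval -0.97 to 0.10, edgeR adjusted p = 0.294). Without mutant replicate 2 it was -0.71 with an adjusted p of 0.0104, in a fit where 1986 of 12613 tested genes passed. Without mutant replicate 1 it was -0.22. The trend of all tested genes against exon length, read at the length of *dys-1*, lay at -1.03, -0.03 and -0.54 relative to its N2 mean in mutant replicates 1, 2 and 3, and *dys-1* itself lay at -0.98, 0.06 and -0.56. With the trend removed, the log2 fold change of *dys-1* was 0.04 (0.07 SE, 95% interval -0.11 to 0.19).

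*dyb-1* (WBGene00001115, chromosome I from 1483083 to 1490498), dystrobrevin, was the one gene of the set with a fitted value above 0. It had 8.92, 8.91 and 8.87 CPM in N2 and 7.92, 11.02 and 10.1 in the mutants. Mutant replicate 1 lay below all N2 libraries and the other mutant libraries lay above them, so the strains overlapped. The log2 fold change was 0.12 (95% interval -0.21 to 0.45) and 0.18 with the length trend removed, and 68 bases of its exons (3.32%) overlap *Y92H12A.5* on the opposite strand.

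**Figure D3:**
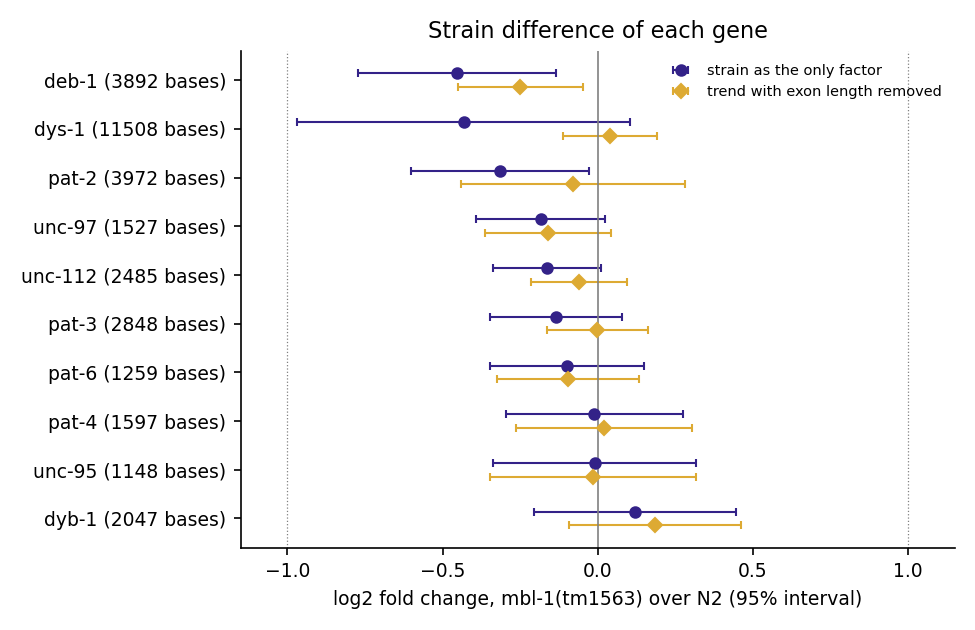
Log2 fold change of each gene, *mbl-1(tm1563)* over N2, with its 95% interval, from the fit with strain as the only factor (circles) and with the trend against exon length removed (diamonds); dotted lines mark a 2-fold change and exon lengths stand beside the symbols. The value of *dys-1* moves from -0.43 to 0.04, that of *deb-1* from -0.45 to -0.25, and no interval reaches a dotted line.

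The length gradient was followed through the set. Across the 10 genes, Spearman's rho of exon length with the log2 fold change was -0.71, and with the trend removed it was 0.13 (10 genes from the same 6 libraries, given as a description). Over 12229 tested genes it was -0.24. In mutant replicate 2, where the trend was nearly flat, *deb-1* was at 82.0% and *pat-2* at 83.8% of the N2 mean, while *dys-1* was at 104%. *deb-1* and *pat-2* have nearly the same exon length (3892 and 3972 bases), yet in mutant replicate 1 *deb-1* lay at -0.77 (log2) and *pat-2* lay at -0.20, on either side of the trend, which lay at -0.46 and -0.47 for their lengths. In mutant replicate 3 the order was the other way round, with *deb-1* at -0.35 and *pat-2* at -0.52.

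**Figure D4:**
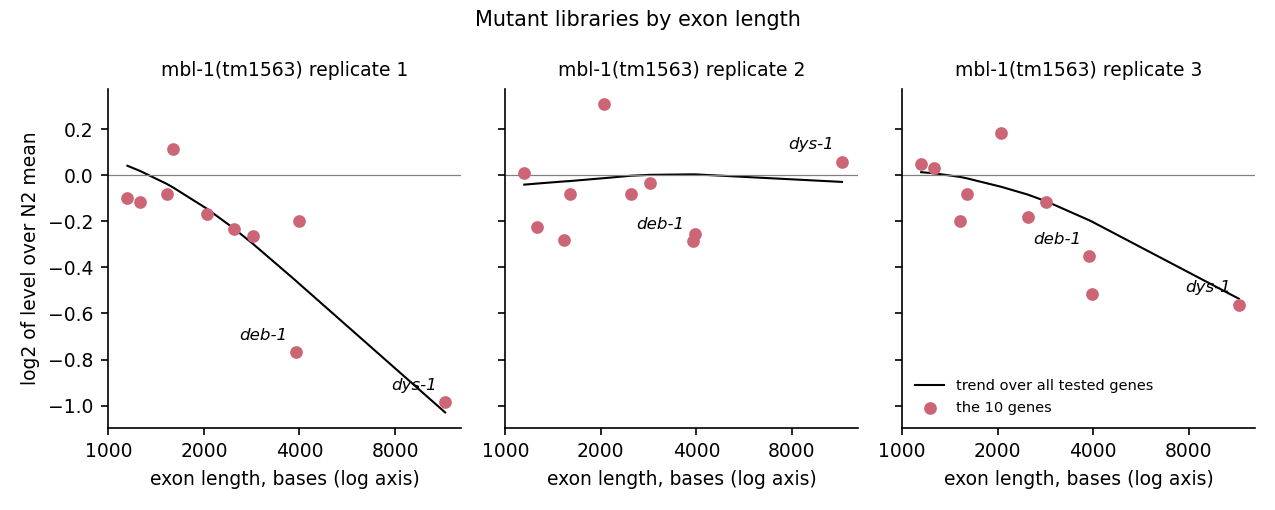
Log2 of each gene's CPM over its N2 mean in the 3 mutant libraries, against merged exon length (log axis); the line joins the trend over all tested genes, relative to its N2 mean, at the lengths of the 10 genes. *dys-1* lies within about 0.1 of the line in each library, at -0.98, 0.06 and -0.56, while *deb-1* lies below it in each.

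Ratios between partner genes, taken inside each library and therefore independent of library scaling, were compared for 6 pairs with two-sided exact permutation tests, in which 3 libraries against 3 allow no p under 0.1. The ratio of *dyb-1* to *dys-1* per exon length was 1.05, 1.01 and 0.949 in N2, close to parity, and 1.77, 1.19 and 1.68 in the mutants. All mutant ratios lay above all N2 ratios (exact permutation p = 0.1, adjusted p = 0.2 over the 6 pairs), with a log2 difference of 0.60. The 2 genes differ in exon length (2047 bases for *dyb-1* and 11508 for *dys-1*), and these ratios were not corrected for the length gradient. The ratio of *deb-1* to *pat-3* was 0.119 ± 0.00993 in N2 and 0.0944 ± 0.00945 in the mutants (SD, n = 3 per strain), also without overlap (exact permutation p = 0.1, adjusted p = 0.2). *unc-97* to *pat-4*, 2 genes of similar length whose proteins bind each other, gave 1.62, 1.97 and 1.61 in N2 and 1.496, 1.493 and 1.59 in the mutants, without overlap (exact permutation p = 0.1, adjusted p = 0.2). The log2 difference of this pair was -0.18, and -0.08 without N2 replicate 2. For *pat-6* to *pat-4* (1.86 in N2 and 1.76 in the mutants) and *unc-112* to *pat-4* (1.85 and 1.66) the strains overlapped (exact permutation p = 0.5 for each). *pat-2* to *pat-3* also overlapped, with 0.0802 ± 0.00926 in N2 and 0.0708 ± 0.0117 in the mutants (SD, n = 3 per strain, exact permutation p = 0.3).

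Other genes of the same structures were followed from lists. Of 22 other integrin adhesion genes, all tested, 1 was lower at an adjusted p under 0.05, 0 were higher, and 0 passed both limits, where the adjusted p alone called 3.58% of all tested genes lower. At an unadjusted p under 0.05 there were 6 of the 22 (23.7% of all tested genes), and DESeq2 gave 2 lower by adjusted p. Their fitted log2 values ran from -0.65 to 0.15, with a median of -0.23, or -0.11 with the length trend removed. In the latter fit 0 were lower and 1 was higher by adjusted p, *alp-1*, an enigma-family protein of dense bodies (0.29, edgeR adjusted p = 0.0466). The gene that passed was *lim-9* (chromosome I from 9181810 to 9220728), a LIM domain protein that binds UNC-97 at M-lines, with 39.96, 41.9 and 41.1 CPM in N2 and 30.96, 32.6 and 31.1 in the mutants. Its log2 fold change was -0.38 (0.07 SE, edgeR adjusted p = 0.0269), and -0.16 (adjusted p = 0.336) with the trend removed. The call of *lim-9* was also lost with the replicate block, with library size alone and with no filter. None of the 22 passed without N2 replicate 1, 2 or 3 or without mutant replicate 3, fits in which 111 to 335 of all tested genes passed. Without mutant replicate 1, 2 of the 22 passed, as did 1517 of 12564 tested genes. Without mutant replicate 2, 5 passed, as did 1986 of 12613 tested genes. The other alpha integrin, *ina-1*, which shares the beta chain PAT-3, had 11.5 ± 0.570 RPKM in N2 and 9.995 ± 0.822 in the mutants. These levels were above those of *pat-2* in each strain. The log2 fold change of *ina-1* was -0.20 (0.09 SE, edgeR adjusted p = 0.211), and 0.0023 (adjusted p = 0.988) with the length trend removed.

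Of 14 other genes linked to the dystrophin complex, 11 were tested and 0 passed in either direction, against 5.35% of all tested genes. At an unadjusted p under 0.05 there were 0, against 23.7%, and DESeq2 gave 0 by adjusted p. Without mutant replicate 2, 1 passed, as did 1986 of 12613 tested genes. *dgn-2* and *dgn-3*, dystroglycan-related genes, had at most 3 counts in any library, and *bkip-1* was too low to be tested. The smallest p belonged to *stn-2*, a syntrophin, with 1.16, 1.54 and 1.48 CPM in N2 and 1.60, 2.05 and 2.13 in the mutants, a log2 fold change of 0.46 (0.21 SE, edgeR adjusted p = 0.235). Its mutant libraries lay above its N2 libraries, on 22 to 39 counts each. The other syntrophin, *stn-1*, had 3.59 ± 0.466 RPKM in N2 and 3.28 ± 0.674 in the mutants, and the sarcoglycan *sgca-1* had 3.09 ± 0.180 and 3.29 ± 0.135 (SD, n = 3 per strain). In N2 both lay below the means of *dys-1* and *dyb-1*. *stn-1* shares 219 bases of exon (14.04%) with *F30A10.9* on the opposite strand.

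The epidermal side of the same attachment, which carries muscle force to the cuticle through fibrous organelles, was listed as 10 genes. Of these 2 were lower and 0 higher at an adjusted p under 0.05, against 3.58% and 1.77% of all tested genes, and 5 had an unadjusted p under 0.05, against 23.7%. None passed both limits, and 1 did without mutant replicate 2, where 234 of 12613 tested genes passed both as lower and 134 as higher. Of 6 epidermis markers, whose sum was 376 to 411 CPM in N2 and 337 to 378 CPM in the mutants, 4 were below 0 and 1 was lower by adjusted p, the transcription factor gene *elt-3* (-0.67, edgeR adjusted p = 0.0283, and 0.0184 with the length trend removed), a call lost with the replicate block, without any 1 of the N2 libraries and without mutant replicate 3. *che-14* had a value of -0.66 (edgeR adjusted p = 0.122) and no overlap between strains. The 2 epidermis markers above 0 were *rol-6* (1.18, edgeR adjusted p = 0.265, on 4 to 49 counts) and *dpy-7* (0.45, edgeR adjusted p = 0.377, on 17 to 40 counts). The part of the epidermis in these differences was not tested. Both lower attachment genes lie on chromosome III. *mup-4*, a transmembrane matrix receptor of fibrous organelles, had 71.5, 70.4 and 68.4 CPM in N2 and 34.4, 42.5 and 35.9 in the mutants. All its mutant values lay far under its N2 values. The log2 fold change was -0.90 (0.09 SE, edgeR adjusted p = 0.00333), and -0.52 (adjusted p = 0.0244) with the length trend removed. For *pat-12*, another fibrous organelle component, it was -0.48 (0.09 SE, edgeR adjusted p = 0.0284), and -0.10 (adjusted p = 0.692) with the trend removed. The median of the 10 was -0.41 as fitted and -0.10 with the trend removed. *mup-4* alone passed without N2 replicate 1, 2 or 3 or without mutant replicate 3, fits in which 111 to 335 of all tested genes passed. Without mutant replicate 1, 4 of the 10 passed, as did 1517 of 12564 tested genes. Without mutant replicate 2, 5 passed, as did 1986 of 12613 tested genes.

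**Figure D5:**
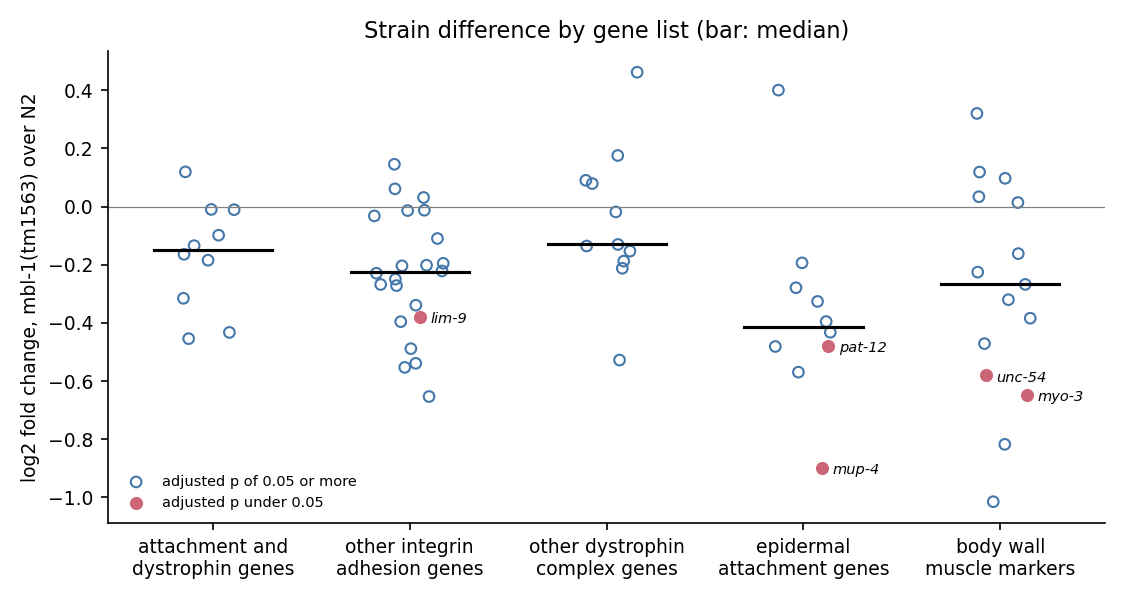
Log2 fold change, *mbl-1(tm1563)* over N2, of each tested gene in the set and in the lists followed beside it; filled points have an adjusted p under 0.05 in edgeR's quasi-likelihood test and bars are medians. The set of 10 has no filled point and a median of -0.15, between those of the other dystrophin complex genes (-0.13) and the other integrin adhesion genes (-0.23).

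Markers of muscle and of other tissues were read beside these values. All 15 body wall muscle markers were tested, the least abundant being *hlh-1*, a muscle transcription factor with 23 to 47 counts per library, and their summed level was 1884 to 2119 CPM in N2 and 1518 to 1865 CPM in the mutants. Of the 15, 10 had a log2 fold change below 0 and 5 above 0. By adjusted p 2 were lower, the myosin heavy chains *unc-54* and *myo-3* (-0.58 and -0.65, edgeR adjusted p = 0.0438 and 0.0145), against 3.58% of all tested genes, and 0 were higher. The highest value was that of the myosin light chain *mlc-2* (0.32, edgeR adjusted p = 0.129), whose mutant libraries all lay above its N2 libraries. None of the 15 passed with the replicate block, with the length trend removed (adjusted p = 0.0870 for *unc-54* and 0.219 for *myo-3*), without N2 replicate 1 or 3, or without mutant replicate 3, and *myo-3* alone passed without N2 replicate 2. Without mutant replicate 1, 2 were lower and 1 was higher, and without mutant replicate 2, 6 were lower and 1 was higher. Over all tested genes, 1517 of 12564 passed without mutant replicate 1 and 1986 of 12613 without mutant replicate 2. With any other single library left out, 111 to 335 tested genes passed. The summed CPM of the 10 attachment and dystrophin genes was 16.9%, 19.2% and 17.2% of that of the muscle markers in N2 and 18.6%, 18.1% and 17.3% in the mutants, so the strains overlapped on this measure, in which *pat-3* has the largest share of the 10.

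The 5 markers of gonadal sheath and spermatheca, contractile tissues that also build integrin attachments, summed to 541 to 583 CPM in N2 and 422 to 599 CPM in the mutants, most of it *fln-1*. Of these 5, 1 was lower by adjusted p, the gap junction gene *inx-8* (-0.31, edgeR adjusted p = 0.0365, and 0.0242 with the length trend removed). By adjusted p alone 3.58% of all tested genes were lower. With the length trend removed *fln-1* passed as higher (0.27, edgeR adjusted p = 0.0340), and as fitted it was at -0.13. The 9 intestine markers, dominated by *vit-2*, summed to 26361 to 29476 CPM in N2 and 11865 to 21308 CPM in the mutants. All 9 were below 0, as were 55.2% of all tested genes. By adjusted p 1 was lower, the peptide transporter *pept-1* (-0.82, edgeR adjusted p = 0.00451). *vit-2* was at -0.78 (edgeR adjusted p = 0.0682), and at -0.53 (adjusted p = 0.00705) with the length trend removed. In that fit 2 of the 9 were lower, *pept-1* and *vit-2*, against 4.56% of all tested genes. *vit-2* also passed with DESeq2, the likelihood ratio test, library size alone and upper quartile scaling. The 5 pharynx muscle markers summed to 52.8 to 59.9 CPM in N2 and 38.5 to 43.9 CPM in the mutants. Of the 4 tested, 0 passed by adjusted p, and 2 did in DESeq2. At an unadjusted p under 0.05 there were 2, against 23.7% of all tested genes. With the length trend removed *myo-1* passed as lower (-0.54, edgeR adjusted p = 0.0187). The 9 neuron markers summed to 272 to 280 CPM in N2 and 257 to 266 CPM in the mutants. Of these, 7 were below 0 and 2 above 0. By adjusted p 2 were lower, *egl-3* and *ida-1*, genes of neuropeptide processing and dense core vesicles (-0.77 and -0.51, edgeR adjusted p = 0.0389 and 0.0476). *snb-1*, with the largest share of the sum, had 155 to 160 CPM in N2 and 167 to 170 CPM in the mutants (0.09, edgeR adjusted p = 0.401). The calls of *inx-8*, *egl-3* and *ida-1* were lost with the replicate block, without any 1 of the N2 libraries and without mutant replicate 3. Those of *inx-8* and *ida-1* were also lost with library size alone, with upper quartile scaling and with no filter. That of *ida-1* was further lost with RLE scaling, without mutant replicate 2 and with the length trend removed. In contrast, *pept-1* passed with each library left out. The 8 germ line markers summed to 5445 to 5874 CPM in N2 and 4905 to 6677 CPM in the mutants. Of these, 4 were below 0 and 4 above 0. None passed by adjusted p, and with the length trend removed *puf-5* was higher (0.37, edgeR adjusted p = 0.0408). The 6 sperm markers summed to 7.51 to 8.13 CPM in N2 and 7.86 to 11.1 CPM in the mutants. Of the 2 tested, both were above 0 and 0 passed. The part of these tissues in the differences of the 10 genes was not tested.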

How the data were processed

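From stranded libraries of poly(A) RNA the authors aligned reads by STAR to the WBcel235 reference transcriptome and counted them with HTSeq (the deposited tables are named as not stranded, and versions are not given in the sources used here); the deposited values are raw counts per gene, 1 table per library, with ambiguous and multiply aligned reads left out. The HTSeq lines for such reads (ambiguous 0.821% to 1.01%, not unique 7.34% to 9.87%, outside genes 0.463% to 0.577% of reads) were kept out of totals and tests. Gene positions and merged exon lengths were read from Ensembl release 115 on WBcel235, where 99.2% of the counted identifiers were found.

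Counts were analysed in R 4.3.3 with edgeR 4.0.16: filterByExpr (minimum count 10, minimum total 15), TMM scaling, and the robust quasi-likelihood test with strain as the only factor, Benjamini-Hochberg over 12335 genes. Calls required an adjusted p under 0.05 and, where said, a 2-fold change. The length correction used deviations of log2 CPM (prior count 2) from each gene's mean over the libraries fitted. Each library's lowess trend (span 0.5) of these deviations against exon length was subtracted as an offset. Alternatives were DESeq2 1.42.0, the likelihood ratio test, other scalings and filters, the replicate block, the length correction, and each library left out. Fits were tested on simulated data with 200 changed genes. No pair of libraries was as alike as sampling noise (lowest chi-square per degree of freedom 3.59). The genes and lists were chosen with earlier results of these data known. The text names all 10 genes, *mbl-1* and, per list, up to 4 genes by smallest p in each direction past the adjusted p limit, or else the gene with the smallest p; *alp-1*, *ina-1*, *stn-1*, *sgca-1*, *dgn-2*, *dgn-3*, *bkip-1* and the markers named were chosen after their values were seen.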

Additional observations from a re-analysis of the deposited data

How the results depend on the processing

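The 10 genes were refitted under 16 alternatives, and in none did a gene pass both limits. The number past the adjusted p limit was 0 in all but 3: it was 1 with the likelihood ratio test (*deb-1*), and it ranged from 0 to 2 when single libraries were left out (*deb-1* without mutant replicate 1, *deb-1* and *dys-1* without mutant replicate 2). The median log2 fold change of the 10 was -0.070 with library size alone, -0.037 with the length correction and -0.035 with the length correction and the replicate block, and -0.17 to -0.11 with single libraries left out. Signs turned for *dys-1* with the length correction (0.038, and 0.037 with the block added), for *pat-3* with both (0.0015), and for *pat-6* without mutant replicate 2 (0.0050). *pat-4* turned positive with DESeq2 (0.023), RLE (0.021), library size alone (0.074), no filter (0.025), the length correction (0.020), and the length correction with the block (0.021), and ran from -0.10 to 0.069 with single libraries left out. *unc-95* turned positive with DESeq2 (0.024), RLE (0.022), library size alone (0.072) and no filter (0.026), and ran from -0.11 to 0.092 with single libraries left out. *unc-112*, *unc-97*, *pat-2*, *deb-1* and *dyb-1* kept their sign in all 16.

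Among the other integrin adhesion genes 2 passed with DESeq2 and 2 with the likelihood ratio test, 0 with library size alone, 0 without a filter, 0 with the replicate block and 0 with the block and the length correction, and 0 to 5 with single libraries left out. Of the epidermal attachment genes 1 passed with library size alone, 1 with the length correction and 1 with that and the block, and 1 to 5 with single libraries left out. The other dystrophin complex genes gave 0 to 1 with single libraries left out. Over all genes 660 passed the adjusted p limit, 1411 with the likelihood ratio test, 382 with the replicate block, 1064 with the length correction and 111 to 1986 with single libraries left out, and the 141 genes lower by 2-fold became 54 to 234. Replicate numbers are shared between strains, but nothing in the labels ties same-numbered libraries together. Their deviations correlated by 0.158, 0.0134 and 0.145, and N2 replicates 2 and 3 correlated better with another number. The replicate block changed no call of the 10 genes, and the median stayed at -0.15. *mbl-1* had an adjusted p of 0.0551 with the block. The cause of these shifts was not tested. With 103 to 129 counts per library, *unc-95* carried a counting error of 9.85% at its lowest count, which limits what could be seen there.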
